A study of Homo sapiens with 30 samples.

Results

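The genes of oxidative phosphorylation encode the subunits of the respiratory chain and of ATP synthase. They were taken by their symbols, as the genes whose names follow the families NDUFA, NDUFB, NDUFC, NDUFS, NDUFV, SDH, UQCR, COX4 to COX8 and ATP5, or the mitochondrial ND, CO, ATP and CYB series. Names ending in P and a number, which mark pseudogenes, were left out, and at least 10 counts were required in at least 3 libraries. Of 63138 genes in the table, 216 matched the patterns, 115 were left out as pseudogenes, 10 of the remaining 101 had too few counts, and 91 genes were kept. MT-ATP6 and MT-ATP8 also end in P and a number but are coding genes, and were kept. Of the 91 genes, 78 lie in the nuclear genome and 13 in the mitochondrial genome, the latter being all protein-coding genes of that genome. The nuclear genes comprised 36 of complex I, 4 of complex II, 9 of complex III, 12 of complex IV and 17 of complex V. The subunit genes COX4I1, CYC1 and NDUFAB1 have names outside these patterns and are described separately.

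Complexes I to IV pass electrons from NADH and succinate to oxygen. All of them but complex II pump protons across the inner mitochondrial membrane, and complex V uses the resulting gradient to make ATP. The mitochondrial genome encodes core subunits of complexes I, III, IV and V, whereas complex II is encoded in the nucleus alone. Both strands of mitochondrial DNA are transcribed as long precursors that are cut into single messages, while each nuclear gene has its own promoter. Brain endothelial cells form the blood-brain barrier and are known for their many mitochondria.

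RNA was sequenced in 30 libraries of hCMEC/D3, an immortalised human brain microvascular endothelial line, in 10 groups of 3. Direct groups were treated for 12 h, either with serum-free medium alone (Control) or with 1 agent. The agents were the cytokines TNFα (25 ng/mL, group TNF) and IL-1β (10 ng/mL, group IL1b), the complement peptide C5a (50 ng/mL) and the adrenergic agonist epinephrine (200 nM). In the vesicle groups, cells of the same line received extracellular vesicles that had been enriched from the medium of cells so stimulated. Each is named by its donor group with the prefix EV, and their libraries carry the same 12 h label. All libraries carry the label of 1 batch, all come from 1 immortalised line, no vesicle dose is given, and there was no group without vesicles among the vesicle groups. Nothing in the labels says that the 3 libraries of a group came from separate cultures, so p-values measure the spread between these libraries, which may be technical.

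Library totals ran from 16643961 to 22112326 counts. Levels are given as CPM, counts relative to library size, after scaling with TMM factors (trimmed mean of M-values), which set the typical gene equal between libraries. For CPM, taken from a fit of all 30 libraries, the scaling factors were 0.842 to 0.861 in TNF and 0.974 to 1.04 in the other groups. In the separate fits of direct and of vesicle libraries they were 0.861 to 0.879 in TNF and 0.983 to 1.06 in the other groups. TNF is thus the group in which the scaling matters most. All 10 endothelial markers checked were detected in every group. Their summed levels were 953 to 996 CPM in Control, 1003 to 1052 CPM in TNF, 710 to 835 CPM in the other direct groups and 610 to 737 CPM in the vesicle groups. Of the markers of other cell types, 4 of 5 pericyte or smooth muscle genes were detected (not DES), 2 of 4 astrocyte genes (AQP4 was at 0), 2 of 5 microglia or leukocyte genes and 3 of 4 neuronal genes (not RBFOX3). In bulk RNA, fewer cells of a type and less RNA per cell cannot be told apart. Calls are adjusted p under 0.05 in edgeR's quasi-likelihood test, with adjustment over all genes tested.

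Promoter sequences are shown for some of the nuclear genes called with the cytokines. Among nuclear genes that passed, NDUFA9 had the largest rise after TNF and UQCR11 after IL1b. NDUFA2 fell after both, as did others not shown, such as NDUFC1, and its TNF call was lost without TNF replicate 3. Each window holds 250 bases before and 50 bases after the RefSeq start (GRCh38.p14), 5′ to 3′ on the gene's strand. Capitals mark matches on either strand to the motifs GCGCNTGCGC (NRF1), CCGGAAG (ETS family, which includes GABP), AAGATGG (YY1) and GGGNNTTTCC (NF-kB).
NDUFA9, chr12:4648864-4649163 (+): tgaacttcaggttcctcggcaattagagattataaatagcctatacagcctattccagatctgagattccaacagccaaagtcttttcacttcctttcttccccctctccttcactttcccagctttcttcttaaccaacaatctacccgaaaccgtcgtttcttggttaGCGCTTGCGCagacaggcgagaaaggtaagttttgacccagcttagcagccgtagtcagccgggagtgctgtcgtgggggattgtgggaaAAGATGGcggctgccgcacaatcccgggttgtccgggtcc
UQCR11, chr19:1605413-1605712 (-): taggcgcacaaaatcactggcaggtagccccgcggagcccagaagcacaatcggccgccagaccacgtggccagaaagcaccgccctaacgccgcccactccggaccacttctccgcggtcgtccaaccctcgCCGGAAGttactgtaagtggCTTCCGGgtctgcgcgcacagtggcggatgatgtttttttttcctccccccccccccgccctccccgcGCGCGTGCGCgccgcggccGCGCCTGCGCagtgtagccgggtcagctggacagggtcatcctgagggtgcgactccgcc
NDUFA2, chr5:140647581-140647880 (-): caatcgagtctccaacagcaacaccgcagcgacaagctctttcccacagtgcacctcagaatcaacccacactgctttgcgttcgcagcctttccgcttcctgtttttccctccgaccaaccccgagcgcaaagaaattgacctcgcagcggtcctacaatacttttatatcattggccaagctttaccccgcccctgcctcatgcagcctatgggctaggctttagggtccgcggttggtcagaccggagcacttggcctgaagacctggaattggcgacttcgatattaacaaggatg
NDUFA9 held 1 NRF1 match, beginning 80 bases before the start, and 1 YY1 match just after it. UQCR11 held 2 NRF1 and 2 ETS matches, and NDUFA2 held no match to these letters. Promoters of 63 of the 78 nuclear genes were found in the RefSeq table. The shares set against them are over all 27305 genes of that table, expressed here or not. They are thus no comparison with genes of like expression. NRF1, ETS and YY1 are factors known for binding promoters of respiratory genes. The NRF1 motif was present in 16 of the 63 (25.4%, against 6.98% of 27305 genes), the ETS motif in 20 (31.7%, against 12.2%), and the YY1 motif in 18 (28.6%, against 7.11%). The NF-kB motif, of the factor through which both cytokines are known to act, was in 2 (3.17%, against 2.33%). The ETS motif ends and the YY1 motif begins with AAG, so 1 stretch can match both, and a match is a description of the sequence alone.

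Among the mitochondrial genes, MT-ATP8 and MT-ATP6 share 46 bases, and reads there cannot be assigned to either gene alone. The shared stretch is shown because MT-ATP8, a short gene, loses 22.2% of its length to it (GRCh38, GENCODE 29 coordinates).
MT-ATP8 and MT-ATP6, chrM:8527-8572 (+): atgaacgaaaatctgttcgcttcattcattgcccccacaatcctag
Mitochondrial genes also have nuclear pseudogene copies, and reads from both can be confused. The copies with the most counts were MTATP6P1, with 918 to 2749 counts per library, and MTCO1P12, with 358 to 882.

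Mitochondrially encoded messages were far more abundant per length than nuclear ones. In Control, 12 of the 13 mitochondrial genes held the highest levels per kb of annotated exon among the 91 genes. They ran from MT-CO2, a catalytic subunit of complex IV, at 3413 CPM per kb, through MT-CO1 at 2936 and the proton-channel subunit MT-ATP6 at 2651, to MT-ND4L at 801. The highest nuclear gene, ATP5F1B, the catalytic beta subunit of ATP synthase, was at 251 CPM per kb, followed by NDUFS5 at 166 and COX8A at 163. MT-ATP8 was at 114 CPM per kb. At the low end stood COX7A1, the muscle form of a complex IV subunit, at 2.29 CPM per kb, NDUFA9 at 2.01, NDUFV2 at 0.769, UQCRHL at 0.653 and NDUFA7 at 0.242. UQCRHL is nearly identical to UQCRH (58.9 CPM per kb), so the division of reads between these 2 genes is uncertain. NDUFA7 was just inside the count minimum, with 0 to 17 counts per library, and NDUFA4L2 and COX6B2, with at most 14 and 13 counts, were just outside it. Lengths are of all annotated exons together, so a gene with long alternative exons, such as NDUFA9, is placed low.

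**Figure D1:**
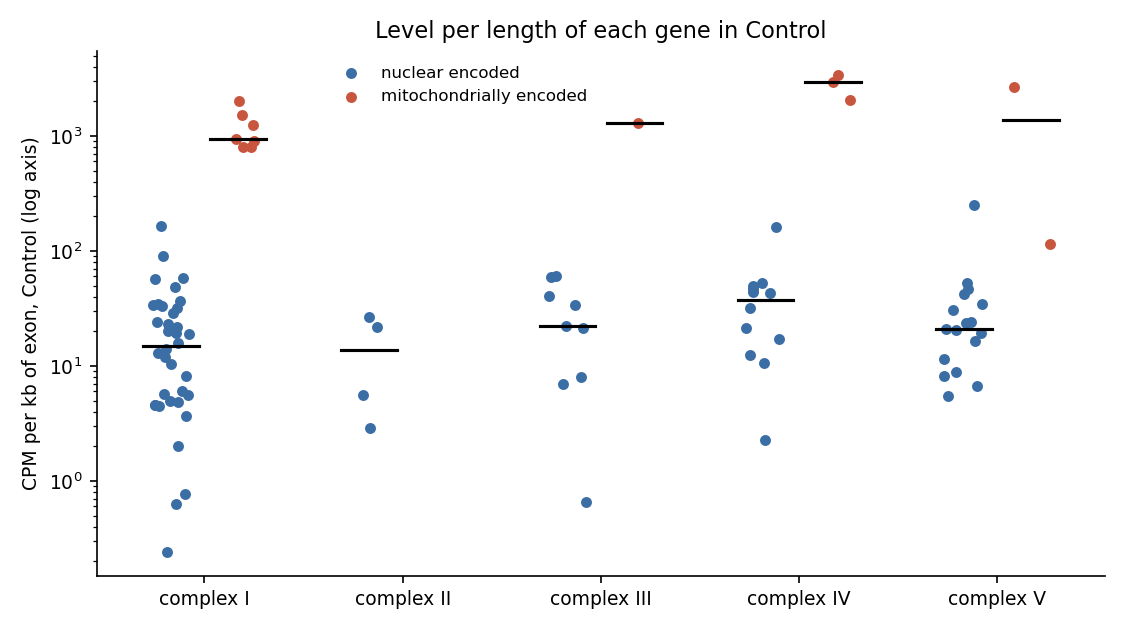
Level of each of the 91 genes in Control, in CPM per kb of exon on a log axis, by complex (points: means of 3 libraries; bars: medians of the genes shown). The mitochondrially encoded genes (red) lie above the nuclear ones (blue) within each complex, except MT-ATP8 at 114 CPM per kb in complex V.

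The nuclear genes varied less across the 10 groups than the mitochondrial genes. Between the highest and the lowest group mean, the median nuclear gene spanned 0.27 on the log2 scale and the median mitochondrial gene 0.67. The median span was 0.48 over 10653 genes with a mean of at least 5 CPM and 0.72 over all 16648 genes with no group mean at 0. The narrowest span, 0.05, belonged to UQCRC1, a core protein of complex III, with group means from 192 to 199 CPM. The mitochondrial genes spanned 0.49 (MT-ND5) to 0.87 (MT-ATP8). In a test of any difference among the 10 groups, 39 of 78 nuclear genes (50%) and 13 of 13 mitochondrial genes passed, against 72.1% of all 16691 genes. The mitochondrial genes come from shared precursors and are not independent of each other. Here and below, their counts are thus not counts of separate results. With total counts as the scaling 71 nuclear genes passed, against 77.8% of all genes. The strongest result was that of NDUFA9, a complex I subunit (adjusted p = 2.58e-12). Of the complexes, 24 of 36 nuclear genes of complex I passed, 1 of 4 of complex II, 5 of 9 of complex III and 4 of 12 of complex IV. Of the 17 of complex V, only ATP5MC2, ATP5F1B, ATP5MC3, ATP5F1C and ATP5MF passed.

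**Figure D2:**
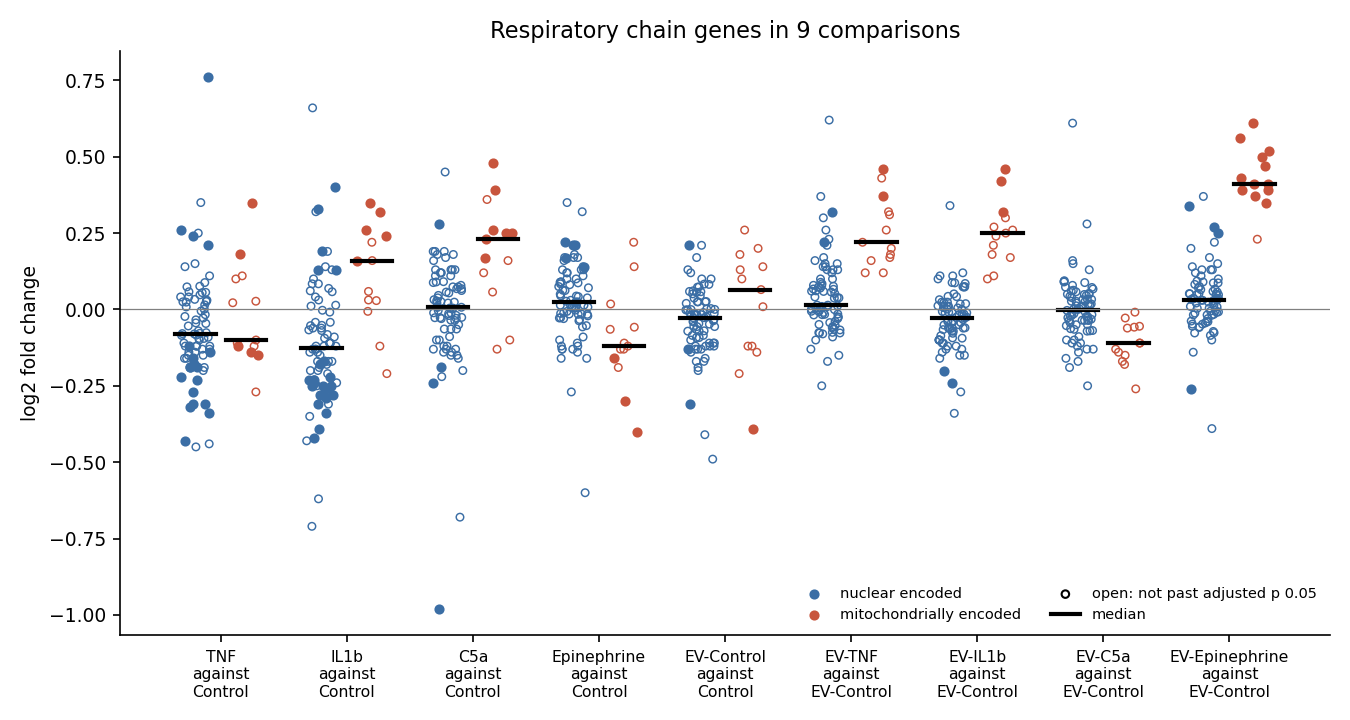
Log2 fold change of each nuclear (blue) and mitochondrial (red) gene in 9 comparisons, with filled points past an adjusted p of 0.05 and bars at the medians. Nuclear medians lie between -0.13 and 0.031, and the mitochondrial median reaches 0.41 in EV-Epinephrine; under scaling by total counts the TNF medians move to -0.36 (nuclear) and -0.38 (mitochondrial).

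With TNF, 19 of the 78 nuclear respiratory genes passed, and whether their share lay below that of all genes depended on the scaling. Of 78 nuclear genes, 4 rose and 15 fell (24.4%), while 52.7% of all genes passed, 27.5% higher and 25.3% lower. The median log2 fold change was -0.079, against -0.012 over all genes. A change of over 0.5 on the log2 scale was seen for 1 nuclear gene (1.28%), against 36.2% of all genes. Complex I, with 36 of the 78 nuclear genes, held 13 of the 19 calls (3 higher, 10 lower). That is a smaller share of its genes than the 52.7% of all genes. Complex V held 3, complex IV held 2, complex III held 1, and none of the 4 complex II genes passed. Under scaling by total counts, which moves the median of all genes to -0.29, 1 nuclear gene was higher and 64 were lower, against 14.4% and 48.9% of all genes. The 65 of 78 nuclear genes called then make a larger share than the 63.3% of all genes, and the direction of the smaller changes depends on the scaling as well.

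NDUFA9, a complex I subunit at the junction of its membrane and matrix arms, had the largest change after TNF among the nuclear genes that passed. Its levels were 21.1, 21 and 20.6 CPM in Control, 35.1, 38.3 and 32.6 CPM in TNF and 26, 27.2 and 25.1 CPM in IL1b. Every TNF library lay above every IL1b library, and both lay above Control without overlap. The log2 fold change was 0.76 (SE 0.0861, adjusted p = 1.91e-09) for TNF and 0.33 (SE 0.0874, adjusted p = 0.00213) for IL1b, and IL1b minus TNF was -0.43 (SE 0.084, adjusted p = 6.71e-05). These comparisons share libraries and are not independent of each other. The TNF value stayed between 0.48 and 0.82 under every alternative (other scalings, filters and tools, a replicate block, other sets of libraries and each library left out), and every statement of a gene passing under every alternative refers to these. Of its exon length, 10.6% is shared with other annotated genes on the same strand (AC005832.4 and AC005833.1), and their part in the result was not tested.

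The remaining nuclear rises after TNF were NDUFS4 (0.26), a complex I subunit of the electron-input arm, UQCRC2 (0.24), a core protein of complex III, and NDUFB9 (0.21), a membrane-arm subunit. All of them turned to between -0.07 and -0.014 under scaling by total counts, none passing. The falls were led by NDUFA5, a complex I accessory subunit, at 46.3, 39.8 and 45.5 CPM in Control and 32.1, 34 and 31.4 CPM in TNF. All TNF libraries lay below all Control libraries, and the log2 fold change was -0.43 (SE 0.0695, adjusted p = 2.24e-06). Further falls were those of NDUFA2 (-0.34), NDUFC2 (-0.32), NDUFC1 (-0.31), NDUFB10 (-0.31) and NDUFB6 (-0.22) of complex I. ATP5MC2, 1 of 3 genes for the same c subunit of ATP synthase, fell by 0.27, and COX7A2L, which helps join complexes III and IV, fell by 0.23. Of these, NDUFA5, NDUFC1, NDUFB10, ATP5MC2 and COX7A2L passed under every alternative. Without TNF replicate 3 the nuclear count was 12, and NDUFA2 (adjusted p = 0.0673) and NDUFB6 (adjusted p = 0.0596) no longer passed. Neuronal markers summed to 124 to 135 CPM in TNF against 42.1 to 51.5 CPM in Control, with MAP2 the marker that rose (1.48). Pericyte and smooth muscle markers summed to 464 to 485 CPM in TNF against 371 to 422 CPM in Control. Endothelial markers summed to 1003 to 1052 CPM against 953 to 996 CPM. The part of these lists in the results was not tested.

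After TNF the mitochondrial genes did not move one way. MT-ND4L (0.35) and MT-ND4 (0.18), neighbours on 1 shared message, were higher, and MT-CYB (-0.15), MT-CO3 (-0.14) and MT-ND2 (-0.12) were lower, 5 of 13 in all. Of these only MT-ND4L showed no overlap between TNF and Control libraries, whereas 59.6% of all genes showed none. Under scaling by total counts 0 mitochondrial genes were higher and 10 lower, and MT-ND4 turned to -0.10. The count fell to 2 without Control replicate 1 or TNF replicate 3, and to 3 without Control replicate 2 or TNF replicate 1.

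With IL1b the median nuclear gene was slightly lower, and part of the mitochondrial genes rose. The share of nuclear genes called lower was near that of all genes. Of 78 nuclear genes, 5 rose and 17 fell (28.2%), against 46.6% of all genes (24% higher, 22.6% lower), with a median of -0.13 against -0.011 over all genes. IL1b was the group with the lowest mean for 31 of the 78 nuclear genes. For 8 nuclear genes all IL1b libraries lay above Control and for 37 below, against 28% and 28.3% of all genes (56.3% in all). The 1636 other coding genes with exons shorter than the nuclear median of 2468 bases had a median of -0.083. Under scaling by total counts 2 nuclear genes were higher and 42 lower, against 18.3% and 29.1% of all genes, and the 44 called are then a larger share than the 47.5% of all genes. In a fit of only the 6 libraries compared the nuclear count was 41. Pericyte and smooth muscle markers summed to 333 to 349 CPM in IL1b and endothelial markers to 710 to 735 CPM, both below Control. Neuronal markers summed to 58 to 66.6 CPM, above Control. The part of these lists in the result was not tested.

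UQCR11, a small subunit of complex III, had the largest rise among the nuclear genes that passed. Its levels were 18.1, 16.9 and 17 CPM in Control, 17.1, 19.7 and 18 CPM in TNF and 23.1, 22.9 and 22.3 CPM in IL1b. The IL1b libraries lay above all Control and TNF libraries, with a log2 fold change of 0.40 (SE 0.092, adjusted p = 0.000477) against Control and 0.32 (SE 0.0923, adjusted p = 0.00449) against TNF. Both calls held under every alternative. Besides NDUFA9, smaller rises were those of SDHB (0.19), the iron-sulphur subunit of complex II, UQCRC2 (0.13) and ATP5F1B (0.13), which did not pass under scaling by total counts (adjusted p = 0.192, 0.403 and 0.378).

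The largest fall among the nuclear genes that passed was that of NDUFC1, a small membrane-arm subunit of complex I, at 27.6, 29.3 and 25.6 CPM in IL1b against 37.3, 38.6 and 35.3 CPM in Control. All IL1b libraries were lower, and the log2 fold change was -0.42 (SE 0.0783, adjusted p = 2.72e-05). NDUFC1 was also at 27.8, 29 and 32.7 CPM in TNF. Then came NDUFA1 (-0.39), NDUFA2 (-0.34), ATP5MC2 (-0.31), ATP5MJ (-0.29), UQCR10 (-0.28), COX8A (-0.28) and NDUFB11 (-0.26). NDUFA1, a subunit needed to assemble complex I, was at 18.2, 22.7 and 19.4 CPM in IL1b and at 28.1, 26.6 and 25.9 CPM in TNF, without overlap. Exons of NDUFC1 are shared with MGARP (18.5%), and those of NDUFA1 (44.5%) with RNF113A on the opposite strand, and whether counting used the strand is not given in the sources used here. ATP5MJ did not pass without IL1b replicate 1 (adjusted p = 0.167), nor UQCR10 without Control replicate 1 (adjusted p = 0.114).

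Of the mitochondrial genes, 5 of 13 rose with IL1b and 0 fell (38.5%), against 46.6% of all genes called and 24% higher. They were MT-ND4L (0.35), MT-ATP8 (0.32), MT-CO1 (0.26), MT-ND4 (0.24) and MT-CO3 (0.16). In all 5 the IL1b libraries lay above the Control libraries. MT-ND4L lost its call in 8 alternatives, with an adjusted p of up to 0.117 without Control replicate 3. Under scaling by total counts 2 were higher, and 1 gene lower. Against TNF, IL1b was higher for 6 mitochondrial genes, with MT-ATP6 (0.33) and MT-CO3 (0.30) at the top, and lower for 0. In that comparison 4 nuclear genes were higher and 6 lower (12.8%), against 41.4% of all genes (19.9% higher, 21.4% lower). The named ones were NDUFV3 (0.38), UQCR11 (0.32), NDUFA5 (0.18) and NDUFS1 (0.18) on the higher side and NDUFA9 (-0.43), NDUFA1 (-0.41), COX7B (-0.31) and NDUFS4 (-0.23) on the lower. Under scaling by total counts 25 nuclear genes were higher and 1 lower, with 11 mitochondrial genes higher, against 40.9% and 12.8% of all genes. The mitochondrial count was 2 without TNF replicate 1 and 3 without IL1b replicate 2, and the nuclear count was 6 without IL1b replicate 1.

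With C5a, 7 of 13 mitochondrial genes rose and few nuclear genes changed. None of the 13 fell, and the 7 that rose (53.8%) compare with 11.8% of all genes higher and 10.8% lower. They were MT-ND4L (0.48), MT-ATP8 (0.39), MT-CO1 (0.26), MT-ND4 (0.25), MT-ND5 (0.25), MT-CO3 (0.23) and MT-ND6 (0.17). MT-CO1 was at 5261, 5377 and 5490 CPM in C5a and at 4598, 4900 and 4083 CPM in Control. All C5a libraries were higher, and the log2 fold change was 0.26 (SE 0.0481, adjusted p = 0.000137). For 7 of the 13 genes all C5a libraries lay above Control, against 19.8% of all genes (40.4% without overlap either way). MT-ND2 (-0.13, adjusted p = 0.0592) and MT-ND1 (-0.10, adjusted p = 0.171) did not pass, and their C5a libraries all lay below Control. Fitted with all 30 libraries, in which the spread is shared with the vesicle groups, the count was 3. Of 78 nuclear genes, 1 rose and 3 fell (5.13%), against 22.6% of all genes, with a median of 0.0068. They were NDUFV3 (0.28), COX6A1 (-0.24), COX8A (-0.19) and NDUFV2 (-0.98), the last at 0.724, 1.11 and 1.31 CPM against 2.28, 2.46 and 1.52 CPM in Control. NDUFV2 is a core subunit of complex I with few counts here, and shares 28.4% of its exon length with AP005263.1. None of these 4 held throughout, and the nuclear count was 1 without Control replicate 1, Control replicate 2 or C5a replicate 1, and 0 without C5a replicate 2. It was 10 in a fit of only the 6 libraries compared.

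Epinephrine lowered the neighbouring mitochondrial genes MT-ND2 and MT-ND1. MT-ND2 was at 1572, 1666 and 1486 CPM in Control and at 1195, 1136 and 1232 CPM in Epinephrine. MT-ND1, like MT-ND2 a core subunit of complex I, was at 1177, 1275 and 1127 CPM and at 984, 935 and 969 CPM. Neither gene overlapped between the groups. The log2 fold change was -0.40 (SE 0.0518, adjusted p = 7.08e-07) for MT-ND2 and -0.30 (SE 0.0508, adjusted p = 3.2e-05) for MT-ND1, and both held under every alternative. MT-CYB also fell (-0.16), and the other 10 of 13 did not pass, with MT-ATP8 (0.22) and MT-ND4L (0.14) among them. The 3 of 13 that fell make 23.1%, against 11.8% of all genes lower. MT-RNR2, the large ribosomal RNA encoded just before MT-ND1, fell as well (-0.32, adjusted p = 0.000104). Whether the selection of RNA for the libraries affected this value was not tested.

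Of 78 nuclear genes, 5 rose with Epinephrine and 0 fell (6.41%), against 25.2% of all genes (13.5% higher). They were ATP5MC1 (0.22), NDUFS4 (0.21), ATP5PD (0.21), ATP5F1B (0.17) and UQCRC2 (0.14), 3 of them parts of ATP synthase. Epinephrine replicate 2 stood apart, with nuclear genes at 0.597% of its counts against 0.515% and 0.513% in the other replicates, and cytosolic ribosomal protein genes at 3.72% against 3.09% and 3.07%. Without it ATP5MC1 (adjusted p = 0.22), ATP5PD (0.362), NDUFS4 (0.276) and MT-CYB (0.264) did not pass, while MT-ND1 and MT-ND2 did, and the counts were 6 nuclear and 3 mitochondrial genes. The nuclear count was 3 without Control replicate 1, 1 without Control replicate 2 and 9 without Epinephrine replicate 1, and the mitochondrial count was 5 without Control replicate 3.

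Vesicles from epinephrine-stimulated cells were followed by a rise of nearly all mitochondrial genes. Of 13, 12 rose and 0 fell (92.3%), against 19.7% of all genes (9.12% higher, 10.5% lower). Since these genes share precursors, the 12 are not separate results. Their summed share ran from 1.81% to 2.25% of counts within EV-Control alone. The median log2 fold change was 0.41, against 0.0071 over all genes, and the values ran from 0.23 for MT-ND3, which did not pass, to 0.61 for MT-ATP8. The EV-Epinephrine libraries lay above the EV-Control libraries for all 13 genes, as for 16.8% of all genes. EV-Epinephrine was also the group with the highest mean for 10 of the 13 genes, across all 10 groups. The rise stood under scaling by total counts (12 genes, median 0.45).

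MT-CYB, the mitochondrially encoded subunit of complex III, was at 1526, 1320 and 1636 CPM in EV-Control and at 2064, 2277 and 2254 CPM in EV-Epinephrine. MT-ND2 was at 1482, 1242 and 1568 CPM and at 1821, 1999 and 1862 CPM. In both genes EV-Control replicate 2 was lowest and no EV-Epinephrine library reached down to EV-Control. The log2 fold change was 0.56 (SE 0.0931, adjusted p = 0.00153) for MT-CYB and 0.41 (SE 0.0863, adjusted p = 0.007) for MT-ND2. MT-ND6, the only gene of the 13 that is read from the light strand, rose by 0.41 (SE 0.09, adjusted p = 0.00787), from 377, 344 and 411 CPM to 468, 530 and 509 CPM. Whether counting used the strand is not given, so reads at MT-ND6 may come from either strand, and the values do not settle whether messages of both strands rose. MT-ND6 was at 453 to 526 CPM in Control, so EV-Epinephrine lay near that level and EV-Control below it. MT-CYB, MT-ND4 and MT-ND6 passed under every alternative. The count was 7 without EV-Epinephrine replicate 2 and 5 in a fit of only the 6 libraries compared.

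The ribosomal RNAs of the same genome did not pass the test. MT-RNR1 had a log2 fold change of -0.17 (adjusted p = 0.613) and MT-RNR2 of -0.091 (adjusted p = 0.686) in EV-Epinephrine. Relative to the 13 messages, ribosomal RNA stood at a log2 ratio of -3.93 ± 0.04 in EV-Epinephrine and -3.42 ± 0.15 in EV-Control (SD, n = 3), without overlap. Ribosomal RNA itself took only 0.184% of counts in EV-Epinephrine and 0.193% in EV-Control, with overlap. The part of RNA selection during library preparation in these low shares was not tested. Summed, the 13 genes took 2.82% ± 0.146 of counts in EV-Epinephrine and 2.05% ± 0.222 in EV-Control (SD, n = 3). The nuclear genes took 0.533% ± 0.0071 and 0.509% ± 0.0052. Pericyte and smooth muscle markers summed to 491 to 510 CPM in EV-Epinephrine and 417 to 438 CPM in EV-Control, with CSPG4 the marker that rose (0.31). Endothelial markers were also higher, at 690 to 717 CPM in EV-Epinephrine and 610 to 655 CPM in EV-Control. The part of either list in the result was not tested.

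Nuclear genes changed little with the same vesicles. Of 77 tested (NDUFA7 had too few counts in the vesicle libraries), 3 rose and 1 fell (5.19%), against 19.7% of all genes. COX6B1, a complex IV subunit facing the intermembrane space, was at 49.7, 52.6 and 48.3 CPM in EV-Control and at 58.1, 62.3 and 61 CPM in EV-Epinephrine, without overlap. It rose by 0.27 (SE 0.0604, adjusted p = 0.000644) and passed under every alternative. NDUFA3 (0.34) and NDUFV3 (0.25) rose and NDUFA11 fell (-0.26), all of complex I. None of these 3 passed without EV-Control replicate 2, nor without EV-Epinephrine replicate 3. The count was 1 without EV-Control replicate 2, EV-Epinephrine replicate 1 or EV-Epinephrine replicate 3.

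**Figure D3:**
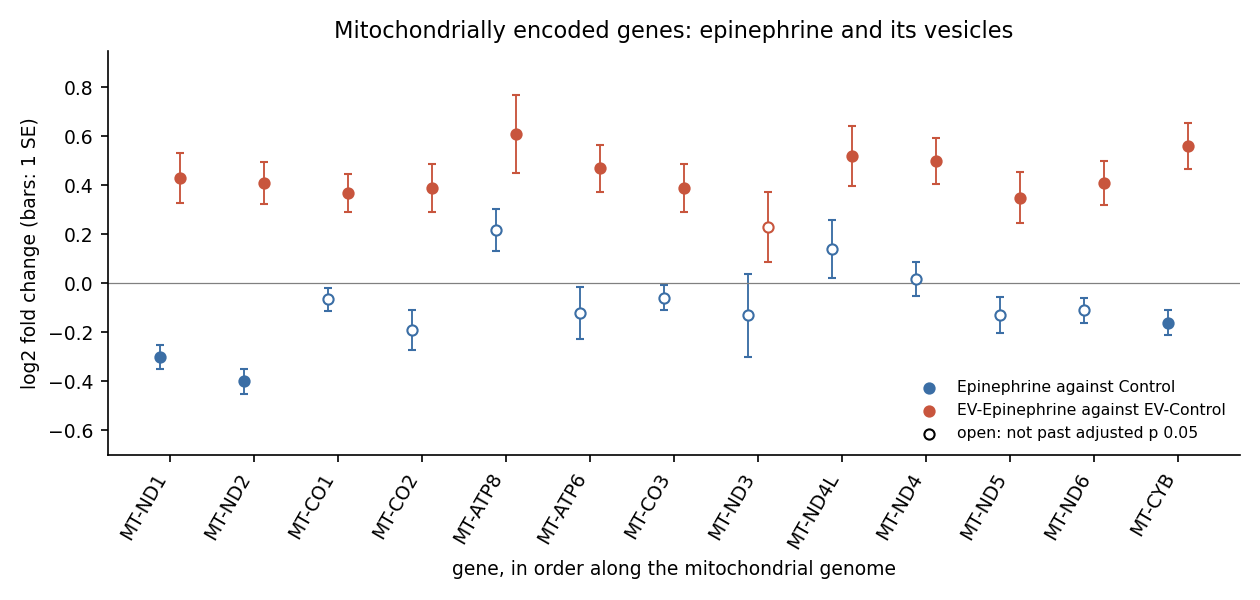
Log2 fold change (bars: 1 SE) of the 13 mitochondrial genes in their order along the mitochondrial genome, for Epinephrine against Control (blue) and EV-Epinephrine against EV-Control (red), with open points not past an adjusted p of 0.05. MT-ND1 and MT-ND2 lie lowest with Epinephrine (-0.30 and -0.40), and with vesicles the genes lie between 0.23 and 0.61.

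The difference between the vesicle and the direct response to epinephrine was tested as an interaction over all 30 libraries. It was above 0 for 13 of 13 mitochondrial genes and passed for 10, against 24.2% of all genes (11.7% higher, 12.5% lower), with a median of 0.49. MT-ND2 had the largest value, 0.81 (SE 0.109, adjusted p = 6.88e-06), then MT-ND1, 0.74 (SE 0.121, adjusted p = 7.85e-05). All 10 passed under every alternative, leaving out each library included. Of the 78 nuclear genes 2 passed, UQCRFS1 (0.21) and COX8A (0.25), with a median of 0.011 over the 78. That nuclear count was 0 without Control replicate 2, EV-Epinephrine replicate 2 or EV-Epinephrine replicate 3, 4 without Epinephrine replicate 1, 8 without Epinephrine replicate 2 and 1 without any of Control replicate 1, Epinephrine replicate 3, EV-Control replicates 1 to 3 and EV-Epinephrine replicate 1.

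TNF and IL1b vesicles raised fewer mitochondrial genes; whether their effect differs from that of EV-Epinephrine was not tested. With EV-TNF, 2 mitochondrial genes rose, MT-ND6 (0.46, adjusted p = 0.00658) and MT-ND5 (0.37, adjusted p = 0.0382), against 13.3% of all genes (5.9% higher, 7.42% lower). With EV-IL1b, 3 rose, MT-ND5 (0.46), MT-ND6 (0.42) and MT-ND2 (0.32), against 14.6% of all genes (6.49% higher). MT-ND6 was at 454, 535 and 569 CPM in EV-TNF and at 483, 534 and 503 CPM in EV-IL1b, above the EV-Control libraries given earlier. Both groups overlapped Control (453 to 526 CPM), below which EV-Control lay. MT-ND5 was at 1337 to 1569 CPM in Control, overlapped by EV-TNF (1388 to 1766 CPM) but not by EV-IL1b (1592 to 1825 CPM). All 13 fold changes were above 0 in both comparisons, which share EV-Control, with medians of 0.22 and 0.25. The EV-TNF count was 4 without EV-Control replicate 3 or EV-TNF replicate 1, 1 without any other of the 6 libraries and 0 in a fit of only these 6, where the adjusted p was 0.108 for MT-ND6 and 0.216 for MT-ND5. The EV-IL1b count was 5 without EV-Control replicate 3, 1 without EV-Control replicate 1, EV-Control replicate 2 or EV-IL1b replicate 2, and 1 in a fit of only the 6 libraries compared. Pericyte and smooth muscle markers summed to 444 to 475 CPM in EV-TNF and EV-IL1b, above the EV-Control libraries. Endothelial markers, at 695 to 737 CPM in these groups, also lay above EV-Control (610 to 655 CPM). The part of either list in the result was not tested.

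Nuclear calls were few in these groups. With EV-TNF, COX6B1 (62.3, 58.6 and 67.6 CPM) rose by 0.32 (SE 0.0601, adjusted p = 7.74e-05) and COX7A2, a complex IV subunit, by 0.22 (adjusted p = 0.00231), 2 of 77 genes (2.6%). The COX6B1 libraries of EV-TNF all lay above EV-Control. With EV-IL1b, NDUFS4 (-0.24) and NDUFA5 (-0.20) fell (2.6%, against 8.14% of all genes lower). The call of NDUFA5 was the weaker, with an adjusted p of up to 0.251 when a library was left out. The EV-TNF count was 6 without EV-Control replicate 3, 5 without EV-TNF replicate 1 and 4 without EV-TNF replicate 2. The EV-IL1b count was 1 without EV-Control replicate 1 or EV-Control replicate 2, and 0 without EV-IL1b replicate 1 or EV-IL1b replicate 2.

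With EV-C5a, edgeR called 0 of 77 nuclear and 0 of 13 mitochondrial genes, and DESeq2 also called 0 of each. The share of all genes called was 0.0503%. At an unadjusted p under 0.05 there were 3 nuclear and 0 mitochondrial genes. All 13 mitochondrial fold changes, which are not independent of each other, were below 0, from -0.26 to -0.0088, and none passed. For the direct and vesicle responses to C5a, the interaction passed for MT-CO3 (-0.39, SE 0.116, adjusted p = 0.0324) and MT-CO1 (-0.35, SE 0.0981, adjusted p = 0.02). It also passed for 2 nuclear genes, NDUFV2 (1.60) and NDUFA2 (0.51), against 11.9% of all genes (5.87% higher, 6.05% lower). NDUFA2 passed in neither response alone (direct -0.22, vesicle 0.28). The mitochondrial count was 5 without EV-Control replicate 2, 0 without EV-Control replicate 3, and 1 without Control replicate 1, Control replicate 3, C5a replicate 2, EV-Control replicate 1, EV-C5a replicate 1 or EV-C5a replicate 2.

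Vesicles from unstimulated cells changed few respiratory genes. In EV-Control against Control, 1 nuclear gene rose (NDUFB9, 0.21) and 2 fell (among them NDUFC1, -0.31), or 3.85% against 21.9% of all genes. MT-ND6 was the 1 mitochondrial gene to pass, at 377, 344 and 411 CPM against 503, 526 and 453 CPM. The groups did not overlap, and the log2 fold change was -0.39 (SE 0.0758, adjusted p = 0.000586). The direct and vesicle groups differ in treatment as a whole, and any difference in handling cannot be told apart from it. The mitochondrial count was 4 without EV-Control replicate 2, and the nuclear count was 7 without EV-Control replicate 1.

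The cytokine responses of 3 leading nuclear genes differed between direct stimulation and vesicles. For NDUFA9 the vesicle response to TNF was 0.076 (adjusted p = 0.678), and the vesicle response minus the direct one was -0.68 (SE 0.128, adjusted p = 8.92e-06). For UQCR11 the vesicle response to IL1b was -0.015 (adjusted p = 0.946) and the difference -0.40 (SE 0.131, adjusted p = 0.0114). For NDUFC1 it was 0.024 (adjusted p = 0.888) and the difference 0.46 (SE 0.108, adjusted p = 0.000501). The TNF interaction passed for 19 of 78 nuclear genes (16 higher, 3 lower) and 6 of 13 mitochondrial genes (all 6 higher), against 44.7% of all genes (21.3% higher, 23.4% lower). The IL1b interaction passed for 9 nuclear genes (8 higher, 1 lower) and for MT-ND2 (0.45) and MT-ND6 (0.38), against 35.2% of all genes (16.9% higher, 18.3% lower). Under scaling by total counts these became 55 nuclear higher and 1 lower with 11 mitochondrial higher for TNF (53.8% of all genes passed), and 19 higher and 1 lower with 4 mitochondrial higher for IL1b. Without TNF replicate 3 the TNF nuclear count was 12, and the mitochondrial count was 3 without TNF replicate 1, EV-Control replicate 2, EV-TNF replicate 2 or EV-TNF replicate 3. Without IL1b replicate 1 the IL1b nuclear count was 4, and without EV-Control replicate 3 the mitochondrial count was 4.

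**Figure D4:**
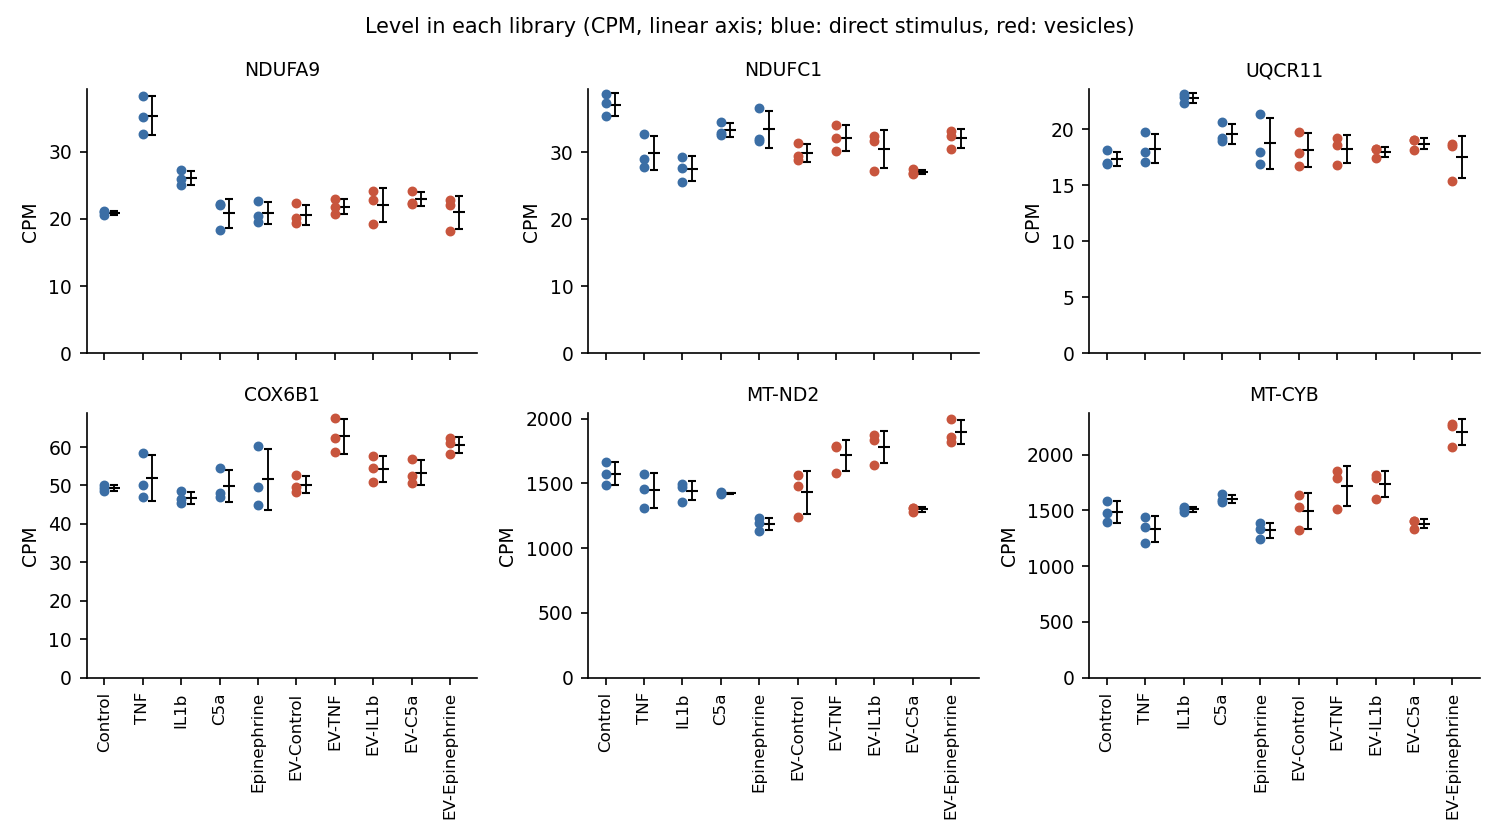
Level in CPM (linear axes from 0) of 6 genes in each of the 30 libraries, direct groups in blue and vesicle groups in red, with mean and SD of 3 libraries. NDUFA9 is highest in TNF (32.6 to 38.3 CPM), UQCR11 in IL1b (22.3 to 23.1 CPM), and MT-ND2 and MT-CYB in EV-Epinephrine.

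The ratio of summed mitochondrial to summed nuclear counts gives the contrast between the genomes without any scaling between libraries. Its log2 mean ± SD (n = 3) was 1.95 ± 0.12 in Control, 1.99 ± 0.09 in TNF, 2.15 ± 0.01 in IL1b, 2.11 ± 0.05 in C5a and 1.78 ± 0.17 in Epinephrine. In the vesicle groups it was 2.01 ± 0.15 in EV-Control, 2.18 ± 0.14 in EV-TNF, 2.27 ± 0.09 in EV-IL1b, 1.90 ± 0.02 in EV-C5a and 2.40 ± 0.09 in EV-Epinephrine. IL1b and C5a lay above Control without overlap (differences 0.20 and 0.16), as EV-IL1b and EV-Epinephrine did above EV-Control (0.26 and 0.39). For C5a the gap was slight, with a lowest unlogged ratio of 4.18 against a highest of 4.17 in Control. Abundant genes weigh most in these sums. The median mitochondrial minus the median nuclear level, in log2 CPM, was 4.83 to 5.03 in C5a, overlapping Control (4.75 to 4.90). By that measure IL1b, EV-IL1b and EV-Epinephrine stayed above their controls, the last 2 both with a mean of 5.16. In the ratio of sums, TNF, EV-TNF, EV-C5a and Epinephrine overlapped their controls. Neighbours in the order EV-C5a, Control, TNF and EV-Control did not differ in it beyond their spread. With 3 libraries against 3, an exact permutation test cannot go below p = 0.1, so these are given without a test. In TNF the nuclear share (0.423% against 0.525% of counts) and the mitochondrial share (1.68% against 2.04%) were both lower than in Control without overlap. The Epinephrine difference of -0.17 was -0.07 without Epinephrine replicate 2.

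**Figure D5:**
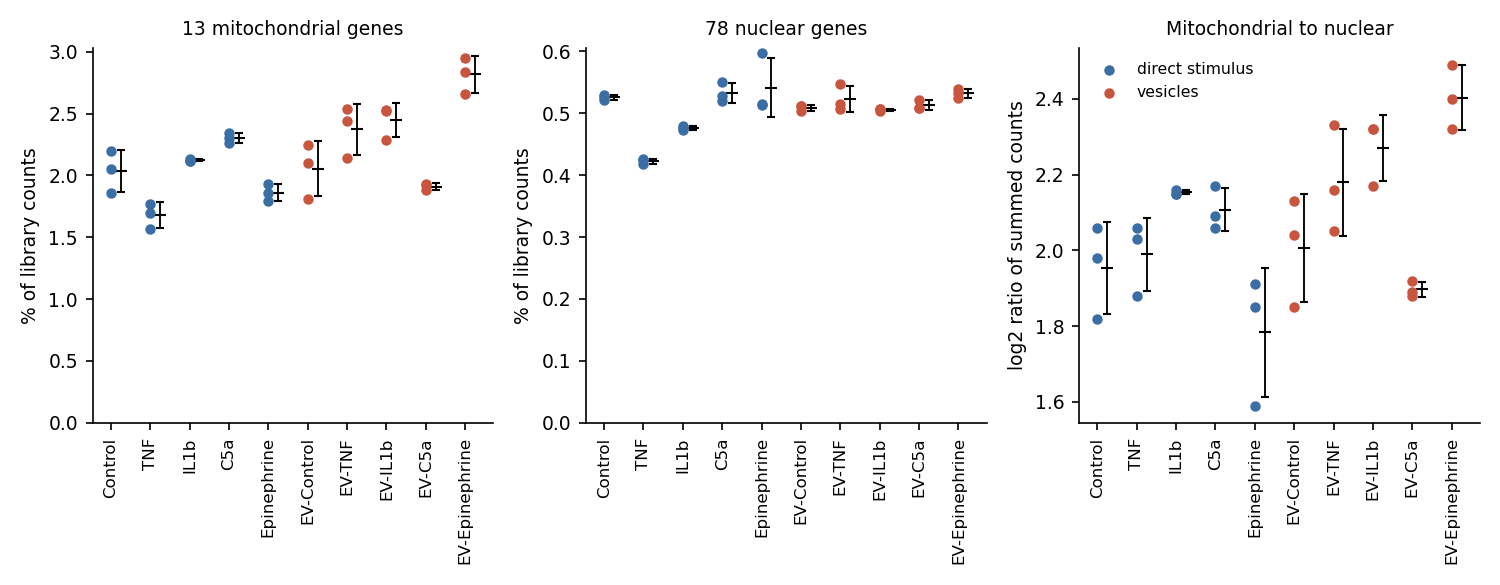
Share of library counts taken by the 13 mitochondrial genes and by the 78 nuclear genes, and the log2 ratio of the 2 sums, for each library by group (points: libraries; bars: mean and SD of 3; the ratio axis does not start at 0). The nuclear share lies between 0.418% and 0.597% and is lowest in TNF, while the mitochondrial share runs from 1.57% in TNF to 2.95% in EV-Epinephrine.

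Several further genes were followed for their role in the complexes. Complex II, which also works in the citric acid cycle, had SDHB (0.19) and SDHD (-0.18) pass with IL1b, in opposite directions. The call of SDHD was lost in 6 alternatives, with an adjusted p of up to 0.178 without IL1b replicate 3. SDHA and SDHC, the flavoprotein and a membrane anchor, passed in none of the 8 stimulus comparisons. Of the 3 genes for the c subunit of ATP synthase, ATP5MC2 fell with TNF and IL1b, ATP5MC3 fell with TNF (-0.16, adjusted p = 0.0251) and ATP5MC1 rose with Epinephrine. COX7A1 passed in none of the 8, with fold changes from -0.62 (IL1b) to 0.62 (EV-TNF) at 1.03 to 3.15 CPM per library. NDUFA4, a complex IV subunit, UQCRH, the hinge protein of complex III, and UQCRHL also passed in none. COX6A2, the muscle form of a complex IV subunit, reached 10 counts in no library.

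Among subunits and carriers with names outside the patterns, 3 of 8 tested rose and 2 fell with TNF, against 52.7% of all genes called, so the count is no result about these genes. CYCS, the cytochrome c that carries electrons from complex III to IV, rose with TNF (0.36, adjusted p = 7.55e-06), IL1b (0.47) and Epinephrine (0.34). CYC1, the cytochrome c1 of complex III, rose with TNF (0.35), as did COX4I1, a regulatory subunit of complex IV (0.27), which fell with EV-Epinephrine (-0.11). ATP5IF1, the inhibitor of ATP synthase, fell with TNF (-0.61) and IL1b (-0.70). NDUFAB1, a complex I subunit that is also the acyl carrier protein, passed in none of the comparisons with a control. PPARGC1A, a coactivator of mitochondrial biogenesis, and COX4I2, an alternative form of COX4I1, had too few counts to test. For these genes and for the lists that follow, values under scaling by total counts are not given here. Under that scaling the median of all genes with TNF moves to -0.29, so TNF values near that size depend on the scaling.

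Genes that copy, read and translate the mitochondrial genome were counted in lists chosen with earlier results of these data known. Their counts are to be read against the shares of all genes called, which were 52.7% with TNF (27.5% higher), 46.6% with IL1b (24% higher), 22.6% with C5a (11.8% higher), 25.2% with Epinephrine (13.5% higher) and 19.7% with EV-Epinephrine. Of 77 mitochondrial ribosomal protein genes, 30 rose and 9 fell with TNF, 37 rose and 4 fell with IL1b, 13 rose and 0 fell with C5a, 26 rose and 0 fell with Epinephrine, and 5 rose and 2 fell with EV-Epinephrine. Of 27 genes for processing and decay of mitochondrial RNA, 14 rose and 1 fell with TNF, 16 rose with IL1b, 11 with C5a, 10 with Epinephrine, and 2 rose and 1 fell with EV-Epinephrine. PNPT1, an exoribonuclease known as an interferon-induced gene, had the largest rise of that list (2.19 with TNF, 0.46 with EV-TNF and 0.39 with EV-IL1b). TFAM, which packages mitochondrial DNA and starts its transcription, rose with IL1b (0.46, adjusted p = 4.19e-10), C5a (0.21) and Epinephrine (0.13), and had values of -0.034 (adjusted p = 0.579) with TNF and -0.036 (adjusted p = 0.672) with EV-Epinephrine. POLRMT, the mitochondrial RNA polymerase, rose with IL1b (0.15) and with EV-Epinephrine (0.17, adjusted p = 0.0393).

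Assembly factors gave mixed counts, which are to be read against 52.7% of all genes called with TNF, 46.6% with IL1b, 25.2% with Epinephrine and 19.7% with EV-Epinephrine. Of 19 complex I factors, 2 rose and 5 fell with TNF, and 5 rose and 1 fell with IL1b. NDUFAF4 rose with TNF (0.75), IL1b (1.04), C5a (0.40) and Epinephrine (0.62), and its TNF interaction was -0.76. Of 38 factors for complexes II to V, 7 rose and 8 fell with TNF, and 13 rose and 5 fell with IL1b. SCO2, a copper chaperone of complex IV, stood at 3.04 with TNF, but its whole annotated exon length is shared with neighbours such as TYMP (3.05), so the reads cannot be told apart. Of 14 regulators of mitochondrial biogenesis tested, 6 rose and 2 fell with TNF, among them MYC (1.26) and SIRT3 (-0.61). With Epinephrine 5 rose and 1 fell, led by HIF1A (0.70), and with EV-Epinephrine 1 rose (CREB1, 0.28) and 3 fell, among them GABPB1 (-0.41), a subunit of the ETS factor GABP.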

How the data were processed

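RNA from 30 hCMEC/D3 libraries was extracted with RNeasy and built into libraries with an NEBNext Ultra kit from 1 ng of total RNA, per the labels' protocols. The submitters' processing notes name FastQC, STAR, DESeq2, R 4.4.1 and hg38, with no roles; the counting program, annotation and use of strand are not given in the sources used here. The deposited values were raw gene counts. After 4 lines without a gene identifier (0.00079% to 0.0016% of a library's counts), 3 repeated identifiers and 2 genes with missing counts were set aside, 63138 genes remained.

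Tests were edgeR 4.0.16 quasi-likelihood fits (R 4.3.3, limma 3.58.1) with TMM scaling, the default filterByExpr filter and Benjamini-Hochberg adjustment over all genes tested. The 15 direct and the 15 vesicle libraries were fitted separately, and interactions, EV-Control against Control and the test across the 10 groups used all 30. Library totals of 16643961 to 22112326 counts set the precision. On data simulated for TNF against Control (15908 genes), 42 of 100 genes changed by 0.3 on the log2 scale and 89 of 100 changed by 1 were called, with 7 false calls among 15708 genes. Those 15708 genes were left unchanged and all genes had the same spread. In the real TNF data far more genes changed, so these rates do not carry over to it. Alternatives were RLE factors, total-count scaling, totals from nuclear genes only, no filter, a mean of 50 counts, DESeq2 1.42.0, a replicate block, other sets of libraries in the fit, a fold-change threshold, and leaving out each library. MT-ATP6 and MT-ATP8 were also left out, an alternative chosen after seeing the data.

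Nuclear genes are named where they had the largest rise or fall past the threshold (up to 8 each way in the stimulus comparisons and EV-Control against Control, 4 in IL1b against TNF, 2 in interactions), except 1 result that is not reported here. The 13 mitochondrial genes, complex II, several paralog sets and a few regulators are named whether or not they changed, as are the largest rise and fall in related lists. The members and lists were chosen with earlier results of these data known. Promoter windows and coordinates come from RefSeq (GRCh38.p14) and exon lengths from GENCODE 29, in which all 91 genes were found. The YY1 motif was shortened to its core after a longer form had been searched and its matches seen. The longer form was found in fewer promoters, among the members and among all genes. Python 3.11.15, pandas 2.3.3, numpy 2.4.6 and matplotlib 3.10.9 were used for sums and figures.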

Additional observations from a re-analysis of the deposited data

Results flagged for a closer look

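The vesicle response differed from the direct response to the same stimulus in the genes counted in the report, by edgeR's interaction test over all 30 libraries (log2 fold change with vesicles minus direct). The 13 values given here are those furthest from 0 in each direction, up to 2 a direction for each stimulus. For TNF the values were 1.06 for COX7A1 (adjusted p = 0.0213), 0.82 for NDUFB1 (0.0295), -0.68 for NDUFA9 (8.92e-06) and -0.34 for NDUFS4 (0.0106). COX7A1 and NDUFB1 passed in neither response alone (direct -0.44 and -0.45, vesicle 0.62 and 0.37). For IL1b they were 0.48 for NDUFA1 (0.0265), 0.46 for NDUFC1 (0.000501) and -0.40 for UQCR11 (0.0114). For C5a they were 1.60 for NDUFV2 (0.01), 0.51 for NDUFA2 (0.00274), -0.39 for MT-CO3 (0.0324) and -0.35 for MT-CO1 (0.02). NDUFV2 was at 0.724 to 2.56 CPM in the libraries compared, and its value rests on few counts. NDUFA2 also passed in neither response alone (direct -0.22, vesicle 0.28). For epinephrine they were 0.81 for MT-ND2 (6.88e-06) and 0.74 for MT-ND1 (7.85e-05). In both genes the direct fold change was below 0 and the vesicle fold change above 0, each past the threshold, as was also so for MT-CYB (-0.16 and 0.56). Of these 13 values, those of NDUFA9, NDUFC1, UQCR11, NDUFA2, MT-ND2 and MT-ND1 passed under every alternative run, the fold-change threshold aside. The values of NDUFC1 (0.46) and UQCR11 (-0.40) do not reach that threshold of 0.5. NDUFV2, with a mean of 1.6 CPM over the groups, has too few counts for the filter at a mean of 50 counts. Its value could thus not be tested under that filter.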

How the results depend on the processing

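Of 135 named gene results past the threshold, 53 stayed past it in the same direction under every alternative. Scaling by total counts reversed 4 with TNF: MT-ND4 to -0.10, NDUFB9 to -0.07, NDUFS4 to -0.014 and UQCRC2 to -0.031. Counts below are of nuclear and mitochondrial genes called, with the reported count in brackets, and the cause of each shift was not tested except where fewer libraries or a stricter call make it.

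Total counts gave, for nuclear genes, 65 for TNF (19), 44 for IL1b (22), 3 for Epinephrine (5), 26 for IL1b against TNF (10), 1 for EV-IL1b (2), 5 for EV-Control against Control (3), 56 and 20 for the TNF and IL1b interactions (19 and 9), and 71 across the 10 groups (39). For mitochondrial genes they gave 10 for TNF (5), 3 for IL1b (5), 11 for IL1b against TNF (6), and 11 and 4 for the TNF and IL1b interactions (6 and 2).

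A fit of only the 6 libraries compared gave nuclear counts of 41 for IL1b (22), 10 for C5a (4), 1 for Epinephrine (5), 25 for IL1b against TNF (10) and 0 for EV-IL1b (2). Its mitochondrial counts were 1 for TNF (5), 0 for EV-TNF (2), 1 for EV-IL1b (3) and 5 for EV-Epinephrine (12). A fit of all 30 libraries gave mitochondrial counts of 1 for TNF (5), 3 for C5a (7) and 2 for IL1b against TNF (6). Its nuclear counts were 1 for EV-TNF (2), 1 for EV-IL1b (2) and 2 for EV-Epinephrine (4).

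DESeq2 gave 4 mitochondrial genes for EV-TNF (2) and for the C5a interaction (2), and 1 nuclear gene for EV-IL1b (2), EV-Epinephrine (4) and the Epinephrine interaction (2). No filter gave nuclear counts of 6 for EV-TNF (2) and 1 for the Epinephrine interaction (2), and mitochondrial counts of 1 for EV-TNF (2) and 2 for EV-Control against Control (1). A mean of 50 counts gave nuclear counts of 3 for Epinephrine (5), 5 for EV-Control against Control (3) and 1 for EV-IL1b (2). RLE factors and totals from nuclear genes each gave 1 nuclear gene for EV-IL1b (2).

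Requiring in addition a log2 fold change over 0.5 left 1 nuclear gene for TNF and C5a and 3 for the TNF interaction. It left mitochondrial counts of 3 for EV-Epinephrine, 2 for the TNF interaction and 6 for the Epinephrine interaction, and 0 in the other counts that were above 0, the nuclear C5a interaction excepted.

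Same-numbered libraries did not deviate together: correlations of their deviations ran from -0.07 to 0.03 in 10 comparisons, and in 0 of them was every pair over 0.1. With a replicate block the count was 1 nuclear gene for EV-IL1b (2) and 1 for the Epinephrine interaction (2), and the other counts stayed within 1.5 times.

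Leaving out each library in turn gave nuclear counts of 12 to 18 (TNF), 17 to 22 (IL1b), 0 to 5 (C5a), 1 to 9 (Epinephrine), 6 to 10 (IL1b against TNF), 2 to 6 (EV-TNF), 0 to 3 (EV-IL1b), 0 to 0 (EV-C5a), 1 to 5 (EV-Epinephrine) and 2 to 7 (EV-Control against Control). Mitochondrial counts in the same order were 2 to 5, 4 to 6, 5 to 8, 2 to 5, 2 to 6, 1 to 4, 1 to 5, 0 to 0, 7 to 12 and 1 to 4. For the TNF, IL1b, C5a and Epinephrine interactions the nuclear counts were 12 to 20, 4 to 9, 2 to 3 and 0 to 8, and the mitochondrial counts 3 to 7, 2 to 4, 0 to 5 and 10 to 11. The libraries that move a count are named beside each result. The differences in the log2 ratio kept their sign in every comparison but TNF (-0.03 to 0.09) and EV-Control against Control (-0.01 to 0.13).

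In the simulated TNF data, where few genes changed, 42 of 100 genes changed by 0.3 on the log2 scale were called. Changes of that size can thus be missed, but the rate in the real data was not measured. NDUFA7, NDUFV2, COX7A1 and UQCRHL have the fewest counts. Without strand or read assignment, counts shared with overlapping genes or pseudogene copies could not be separated.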

Other observations

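Outside the protein-coding genes, the largest log2 fold change of all genes tested with EV-TNF and with EV-IL1b was that of a mitochondrial transfer RNA gene, MT-TF (3.49 and 3.51). It was chosen after its values were seen, and both comparisons share the EV-Control libraries. The gene is far shorter than the messages described here, and its level in a library of fragmented RNA was not examined further.

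Of the mitochondrial ribosomal RNAs, MT-RNR1 rose with IL1b (0.81, adjusted p = 0.00832) and MT-RNR2 fell with TNF (-0.16, adjusted p = 0.0208). The part of RNA selection in these values was not tested either. FMC1, an assembly factor of ATP synthase, fell with Epinephrine (-2.21), from 0.583 CPM in Control to 0.117 CPM, a level of few counts.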
